A study of Rattus norvegicus with 119 samples.

Results

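The genes described here are 10 genes known for their expression in the endothelial cells that line brain blood vessels: Cd93, Apold1, Cldn5, Pecam1, Flt1, Kdr, Tek, Abcb1a, Slc2a1 and Cdh5. They were chosen with earlier results of these data known. Each was taken from the probe sets whose only gene symbol in the array's annotation was one of these names, which gave 10 probe sets, 1 per gene, of 29214 probe sets on the array. Each level is a log2 hybridisation intensity, so a difference of 1 is a doubling of signal. The samples were hippocampus of rats from 3 strains, Fischer, Long Evans and Sprague Dawley, with 1 array per animal, 40 Fischer, 40 Long Evans and 39 Sprague Dawley arrays, in 30 groups. Control animals ate control food with 0 ppm lead, and the labels do not say whether that food was given over the perinatal or the postnatal schedule. Exposed animals received lead acetate in food at 250 ppm or 750 ppm. In the perinatal groups the dams ate it from 10 days before breeding until weaning, after which the pups ate control food. In the postnatal groups it was given from birth to postnatal day 45, followed by control food. All tissue was collected at postnatal day 55, so each exposed animal had already returned to control food. Males and females formed separate groups of 4 animals, except the Sprague Dawley male controls with 3. The labels give no litter, so p-values measure the spread between animals, some of which may share a dam.

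Endothelial cells of brain vessels form the blood-brain barrier. Tight and adherens junctions seal neighbouring cells, transporters carry glucose inward and pump drugs outward, and receptors for vascular endothelial growth factor and for angiopoietin set vessel growth and stability. These vessels are only a small part of hippocampal tissue. In whole tissue, fewer cells of a type and less RNA per cell cannot be told apart.

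The 8 genes with an established place in these vessels (Cldn5, Pecam1, Flt1, Kdr, Tek, Abcb1a, Slc2a1 and Cdh5) are themselves defining endothelial markers. Their mean levels lay between percentiles 54.2 and 95.3 of all probe sets, and no detection threshold was at hand. The mean level of Cd93 was at percentile 55.8, and that of Apold1, the dimmest of the genes described here, at percentile 37. Cd93 is also made by myeloid cells, and Apold1 is also an immediate early gene. Each group carries its own run of label numbers, so a run and a group cannot be told apart. The run of the Long Evans controls is followed directly by that of the perinatal 750 ppm females, and the other exposed Long Evans groups have later runs. Within the runs, the lower and upper numbers differed over many genes in Fischer and in Sprague Dawley rats. What these numbers stand for is not stated. X-linked genes went against the labelled sex in 3 Long Evans, 5 Sprague Dawley and 0 Fischer arrays. In Long Evans rats these arrays were male control replicate 4 and female control replicates 1 and 3. In Sprague Dawley rats they were female control replicate 2, male perinatal 750 ppm replicate 4 and male postnatal 750 ppm replicate 2. The female postnatal 750 ppm replicates 2 and 4 were the others. Comparisons of single animals below include them. Effects of label number and of these arrays are given beside some results only.

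The 250 bases before the annotated start are shown for Apold1, the gene with a dose difference in Fischer rats, and for Flt1, the other of the genes with TATAAA and the one with a cAMP response element. RefSeq (rat assembly GRCr8) gave such a window for 6 of the 10 genes: Apold1, Cldn5, Flt1, Kdr, Abcb1a and Slc2a1. Capitals mark TATAAA in Apold1, on the plus strand of chromosome 4, chr4:169552349-169552598. In Flt1, on the plus strand of chromosome 12, chr12:12333180-12333429, they mark TGACGTCA, the cAMP response element, matches on the reverse strand to GCGNGGGCG, the EGR motif, and TATAAA.
Apold1: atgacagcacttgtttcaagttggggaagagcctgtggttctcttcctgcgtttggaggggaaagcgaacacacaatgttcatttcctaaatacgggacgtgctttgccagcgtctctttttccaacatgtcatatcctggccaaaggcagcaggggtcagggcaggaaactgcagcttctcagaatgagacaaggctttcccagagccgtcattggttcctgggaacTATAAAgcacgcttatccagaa
Flt1: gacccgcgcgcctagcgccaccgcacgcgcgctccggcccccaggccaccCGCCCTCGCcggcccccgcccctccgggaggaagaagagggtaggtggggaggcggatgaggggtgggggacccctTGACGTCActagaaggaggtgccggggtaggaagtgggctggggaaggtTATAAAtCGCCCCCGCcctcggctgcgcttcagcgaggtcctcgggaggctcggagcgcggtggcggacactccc
Every motif was searched on both strands. Apold1 held TATAAA from 22 to 17 bases before the start, and 12.9% of 33469 rat promoter windows of this length held it. No match to TGACGTCA, TGANTCA (AP-1), GCGNGGGCG or the CArG box was present in this Apold1 window. Flt1 held TGACGTCA from 124 to 117 bases before the start, against 1.59% of all windows with this motif, and 2 matches to GCGNGGGCG, against 4.29% of all windows with at least 1. Abcb1a held TGANTCA once, against 6.34% of windows. The ETS core GGAA was in 4 of the 6 windows and in 93.2% of all windows. GTAAACA, the forkhead motif, was in 0 of the 6 and in 3.21% of all windows. These matches describe letters only, and no binding was measured.

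Cd93, a C-type lectin-like transmembrane receptor of endothelial and myeloid cells that takes part in vessel maturation, was lower in lead-exposed Long Evans rats than in their controls. The 4 male controls read 8.23, 8.17, 8.29 and 8.27, and the 4 female controls 7.91, 8.15, 7.99 and 8.12. The male control at 8.27 and the female controls at 7.91 and 7.99 had X-linked gene levels against their labelled sex. The 4 males given 750 ppm perinatally read 7.51, 7.70, 7.83 and 7.65, and the 4 females 7.76, 7.72, 7.82 and 7.68. All 8 of these exposed animals lay below all controls of their sex, as did 1.38% of probe sets in the males and 1.53% in the females. At 250 ppm the perinatal males read 7.88, 7.90, 7.73 and 7.84 and the postnatal males 7.70, 7.80, 7.75 and 7.92, again all below the male controls (0.979% and 1.73% of probe sets). The perinatal females at 250 ppm read 7.46, 7.84, 7.74 and 7.95 and the postnatal females 7.75, 7.68, 7.93 and 7.87, of which 1 in each group overlapped the female controls. Postnatal 750 ppm stood nearest to the controls, with 8.15, 8.09, 7.83 and 8.27 in males and 8.0, 8.20, 7.88 and 7.72 in females. Both of these groups overlapped their controls.

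**Figure D1:**
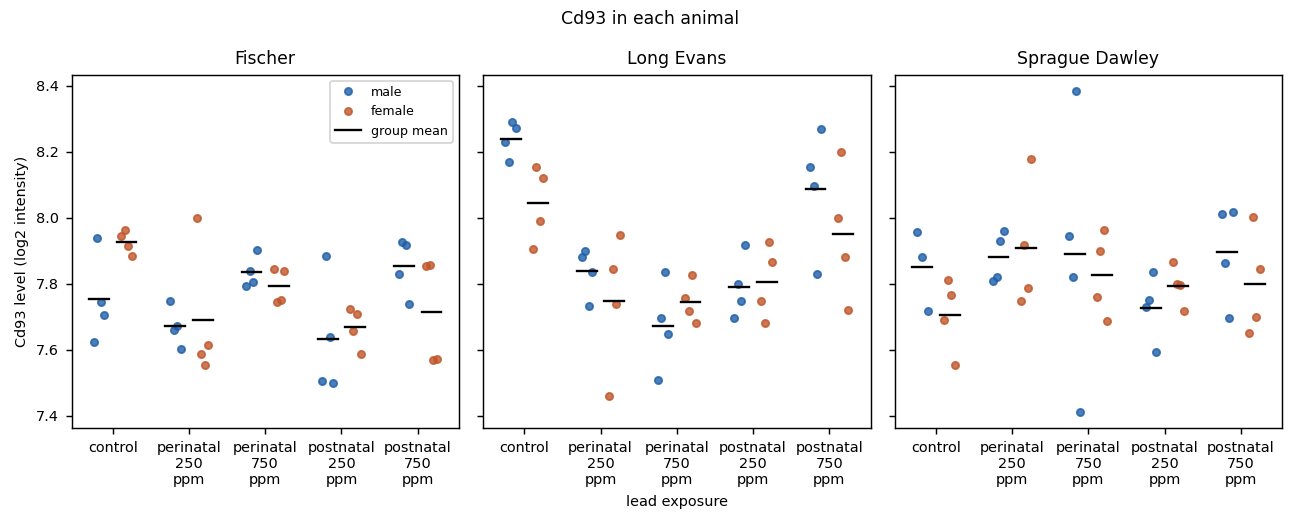
Cd93 level (log2 intensity, vertical axis) in each animal by lead exposure (horizontal axis) in the 3 strains, with males in blue, females in orange and black bars for group means. In Long Evans rats the control groups have means of 8.24 and 8.04, above all 8 exposed groups of the same sex. In Fischer females the perinatal 750 ppm, postnatal 250 ppm and postnatal 750 ppm animals also all lie below their controls. The Sprague Dawley exposed groups overlap their controls.

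Averaged over the 8 exposed Long Evans groups, Cd93 was at 7.83 against 8.14 in the 2 control groups. The difference was -0.31 ± 0.053 (SE; 32 exposed and 8 control animals), with an adjusted p of 0.00346 in limma after Benjamini-Hochberg adjustment over all probe sets. Cd93 was the only one of the 10 genes to pass in this contrast, in which 0.212% of all probe sets passed. All 8 exposed groups had means below the controls of their sex, by -0.57 to -0.093. They share those controls, so the 8 comparisons are not independent, and this holds for every such tally of exposed groups below. Among single groups, Cd93 fell in perinatal 750 ppm males, by 0.57 ± 0.095, from a mean of 8.24 to 7.67 (limma adjusted p = 0.0129), where 0.0548% of probe sets passed. It had the smallest p of all 29214 probe sets in that contrast. That call rested on single arrays: the adjusted p was 0.0619 without male control replicate 1, and 0.101 and 0.0534 without exposed replicates 1 and 2. The average over all exposed groups kept its call without any 1 of the 40 Long Evans arrays, at -0.33 to -0.29, and was -0.29 among lower and -0.33 among upper label numbers. Without the 3 Long Evans arrays whose X-linked genes opposed their label, all of them controls, it was -0.35 (limma adjusted p = 0.033), and the call in perinatal 750 ppm males was lost (-0.56, limma adjusted p = 0.0537).

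Other genes moved beside Cd93 in Long Evans rats. In the average over exposed groups the immediate early genes Junb and Nr4a1 fell by 0.31 ± 0.067 and 0.42 ± 0.091 (limma adjusted p = 0.0399 for each), and 22 of 28 probe sets for immediate early genes were below 0 with a median of -0.15. All 16 choroid plexus probe sets were below 0, with a median of -0.35 and 0 calls, and 15 of 18 meningeal and fibroblast probe sets were above 0, with a median of 0.12. In perinatal 750 ppm males the meningeal gene Fbln2 fell by 0.93 ± 0.16 (limma adjusted p = 0.0129), and the median of the 16 choroid plexus probe sets was -0.87. The mean choroid plexus level per array ran from 7.35 to 9.13 in that group and from 7.66 to 10.5 in the male controls. With the choroid plexus level as a covariate the average Cd93 difference was -0.30 (limma adjusted p = 0.00348), and with the meningeal level -0.34 (limma adjusted p = 0.000545). The choroid plexus gene Ttr differed by -1.27 ± 1.26 in perinatal 750 ppm males (limma adjusted p = 0.851), and the fibroblast collagen gene Col1a2 by 0.20 ± 0.11 in the average (limma adjusted p = 0.742). The part of the immediate early genes in the result was not tested. All 4 measured probe sets for lectin-like relatives and ligands of Cd93 were below 0 in the average, with a median of -0.033 and 0 calls, and Mmrn2, a matrix ligand of Cd93, was not analysed here. Of 23 probe sets for growth factor, angiopoietin and Notch signalling, 8 were above and 15 below 0, and of 13 for Wnt and barrier regulators 4 and 9, with 0 calls in each. Among 10 microglial probe sets, which mark the resident myeloid cells, 5 were above and 5 below 0 with 0 calls. Among the other 26 probe sets for endothelial identity and junctions, 12 were above and 14 below 0, with a median of -0.025 and 0 calls, against a median of 0.0010 over all probe sets.

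In Fischer rats Cd93 had lower means than controls in 6 of 8 exposed groups, but the average difference was -0.11 ± 0.048 with a limma adjusted p of 1. In the Fischer females the 4 controls read 7.94, 7.96, 7.91 and 7.88. All 4 animals of the perinatal 750 ppm (7.74 to 7.84), postnatal 250 ppm (7.59 to 7.72) and postnatal 750 ppm (7.57 to 7.86) groups lay below them, as did 1.22%, 1.37% and 1.2% of all probe sets in the same comparisons. None of these 3 differences passed the test over all probe sets. In Sprague Dawley rats 7 of 8 exposed means were above controls, and the average difference was 0.062 ± 0.072 (limma adjusted p = 0.999). The perinatal 750 ppm males of that strain held both the highest and the lowest Cd93 value of the strain, 8.38 and 7.41. The array at 7.41 was 1 of those whose X-linked genes went against the labelled sex. The difference in the lead effect between Sprague Dawley and Long Evans rats was itself 0.37 ± 0.084 (limma adjusted p = 0.0338), where 0.0787% of probe sets passed. It lost its call in a fit of these strains alone (limma adjusted p = 0.0912) and without any of 9 of the 23 control arrays taken singly. The other comparisons of the Cd93 lead effect between strains did not pass, at -0.20 ± 0.081 for Long Evans minus Fischer (limma adjusted p = 0.86) and 0.17 ± 0.084 for Sprague Dawley minus Fischer (limma adjusted p = 1). In the same Sprague Dawley minus Long Evans comparison, 5 of 28 immediate early probe sets were higher, led by Dusp1 at 0.75 ± 0.17, Nr4a1 at 0.72 ± 0.12 and Arc at 0.65 ± 0.12, and Fbln2 was higher by 0.42 ± 0.090 (limma adjusted p = 0.0232).

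Apold1, an endothelial immediate early gene induced by activity, hypoxia and other stimuli, was higher at 750 ppm than at 250 ppm lead in Fischer rats, and 3 of the 8 exposed groups, all at 750 ppm, had means above their controls. The fourth group at 750 ppm, the perinatal females, was at 6.72 against 6.82. The 4 male controls read 6.08, 6.48, 6.27 and 6.77. Males given 750 ppm postnatally read 7.82, 7.79, 7.42 and 7.52, and males given it perinatally 7.88, 6.80, 6.99 and 6.96. All 8 lay above the male controls, as did 2.04% of probe sets after postnatal and 1.31% after perinatal exposure. At 250 ppm the perinatal males read 6.17, 6.36, 6.54 and 6.27 and the postnatal males 6.22, 6.32, 6.31 and 6.03, within or just below the control range. The female controls read 6.62, 7.01, 7.06 and 6.61. Females given 750 ppm postnatally read 7.06, 7.16, 7.19 and 7.20, the lowest of them above the highest control by less than the second decimal, whereas those given it perinatally read 6.44, 6.57, 6.79 and 7.06 and overlapped them. At 250 ppm the females read 6.84, 5.90, 6.18 and 6.53 in the perinatal group and 6.58, 6.53, 6.73 and 6.65 in the postnatal group.

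**Figure D2:**
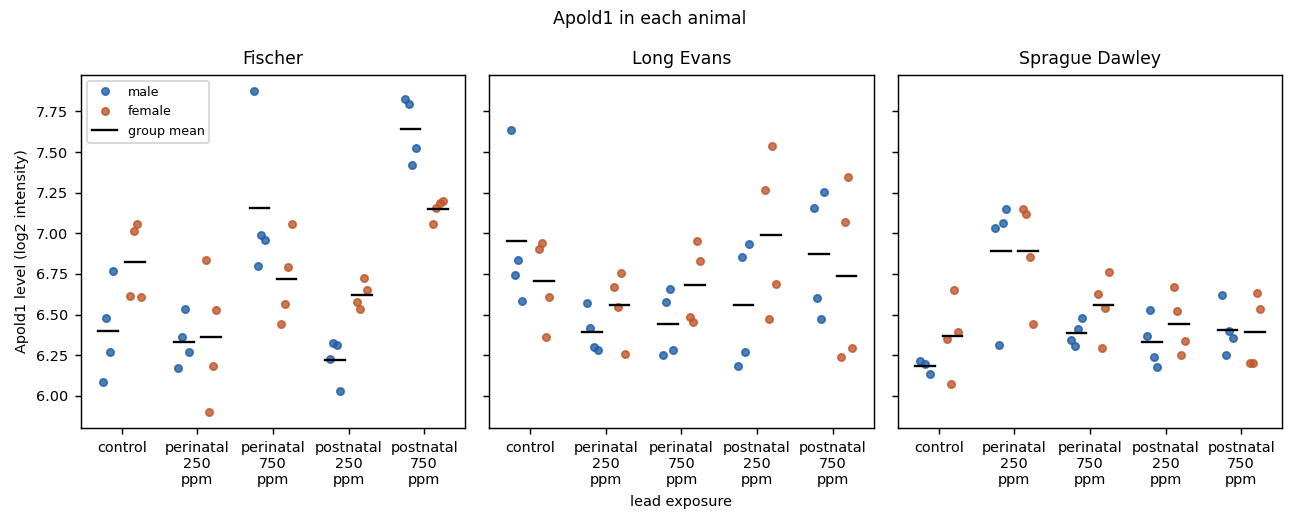
Apold1 level (log2 intensity, vertical axis) in each animal by lead exposure (horizontal axis) in the 3 strains, with males in blue, females in orange and black bars for group means. The Fischer postnatal 750 ppm males have the highest group mean, 7.64, and the Sprague Dawley male controls the lowest, 6.18.

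Apold1 rose in postnatal 750 ppm Fischer males by 1.24 ± 0.18 (SE; 4 exposed and 4 control animals), from 6.40 to 7.64, with a limma adjusted p of 0.00239. In that contrast 0.0137% of probe sets passed, and Apold1 had the smallest p of all. In perinatal 750 ppm males the difference was 0.75 ± 0.18 and in postnatal 750 ppm females 0.33 ± 0.18, neither passing after adjustment over all probe sets (limma adjusted p = 1 for each), with no overlap between exposed and control animals. In the females, exposed animals lay above all controls for 0.284% of probe sets. Over the 4 groups at each dose, Apold1 was higher at 750 ppm than at 250 ppm in Fischer rats by 0.78 ± 0.091 (7.17 against 6.39; 16 animals each; limma adjusted p = 8.05e-06), the second smallest p of all probe sets, 0.0719% of which passed. The dose difference was 0.82 among lower and 0.74 among upper label numbers, and that of the postnatal 750 ppm males 1.53 and 0.95. Leaving out any 1 of the 40 Fischer arrays kept both calls, with 1.13 to 1.36 for the single group and 0.72 to 0.82 for the dose.

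The dose difference in Apold1 was accompanied by other immediate early genes. In Fischer rats 11 of 28 immediate early probe sets were called higher at 750 ppm than at 250 ppm and none was called lower. Of all probe sets, 0.0548% were called higher and 0.0171% lower. The median difference of the 28 was 0.20, against -0.0043 over all probe sets. Npas4, a neuronal activity-dependent transcription factor, differed by 0.76 ± 0.14 (limma adjusted p = 0.0133), Dusp1, a phosphatase of mitogen-activated kinases, by 0.69 ± 0.086 (limma adjusted p = 2.61e-05), and Nr4a1, a nuclear receptor, by 0.49 ± 0.076 (limma adjusted p = 0.00104). Fos, a subunit of AP-1, differed by 0.44 ± 0.049 (limma adjusted p = 6.03e-06) and Junb by 0.31 ± 0.054 (limma adjusted p = 0.0063). In the postnatal 750 ppm males Fos rose by 0.57 ± 0.098 (limma adjusted p = 0.0156) and Dusp1 by 0.97 ± 0.17 (limma adjusted p = 0.0201). The other 9 endothelial genes all had means at 750 ppm above those at 250 ppm, by 0.016 to 0.21, and none of them passed. Kdr had the largest of these, 0.21 ± 0.056 (limma adjusted p = 0.312), and passed without postnatal 750 ppm female replicate 1 (0.24, limma adjusted p = 0.0467). All 16 choroid plexus probe sets were also above 0 in the dose contrast, with a median of 0.77 and 0 calls, and their mean level per array ran from 8.22 to 10.25 in the postnatal 750 ppm males against 7.29 to 10.25 in their controls. With that level as a covariate the dose difference in Apold1 was 0.78 (limma adjusted p = 4.75e-05) and the difference in postnatal 750 ppm males 1.24 (limma adjusted p = 0.00456). Whether Apold1 moved apart from the other immediate early genes was not tested.

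In Sprague Dawley rats all 8 exposed groups had Apold1 means above controls, by 0.027 to 0.71, and none passed. Groups of the same sex share their controls, so these 8 comparisons are not independent. The largest difference was in perinatal 250 ppm males, 0.71 ± 0.17 (limma adjusted p = 0.213). Those males read 7.03, 6.31, 7.07 and 7.15 against 6.21, 6.20 and 6.13 in the 3 controls, so that no exposed animal overlapped the controls and 1 stood near them. Exposed animals were above all controls for 2.28% of probe sets in that contrast. It passed with array weights (0.79, limma adjusted p = 0.00998) and without replicate 2, the animal at 6.31 (0.90, limma adjusted p = 0.0125). The perinatal and postnatal 750 ppm males also lay above all 3 controls, at 6.31 to 6.48 and 6.25 to 6.62, as did 2.07% and 2.72% of probe sets. The perinatal 250 ppm females read 7.15, 7.12, 6.86 and 6.44 against 6.35, 6.07, 6.65 and 6.39, a difference of 0.53 ± 0.15 (limma adjusted p = 0.904). The mean immediate early gene level per array was 8.92, 8.78, 8.99 and 9.03 in the perinatal 250 ppm males. Their controls were at 8.51, 8.55 and 8.66. In the perinatal 250 ppm females it was 8.66 to 8.92, against 8.52 to 8.80 in controls. Over all exposed animals of the strain it averaged 8.69, against 8.62 in controls. Whether Apold1 moved apart from these genes was not tested. The 750 ppm groups of this strain had a lower Apold1 mean than the 250 ppm groups when averaged over the strain, by -0.20 ± 0.077 (limma adjusted p = 1), where 0.00342% of probe sets passed. In postnatal males the order was the other way, with means of 6.33 at 250 ppm and 6.41 at 750 ppm.

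In Long Evans rats 6 of 8 exposed groups had Apold1 means below controls. The male controls read 7.64, 6.74, 6.84 and 6.58, with a mean of 6.95 and the first animal well above the other 3. The perinatal 250 ppm males, at 6.28 to 6.57, lay below all 4, as did 0.979% of probe sets. The average lead effect was -0.17 ± 0.14 (limma adjusted p = 0.891). Several Long Evans groups were widely spread: the postnatal 750 ppm females read 6.24, 7.07, 7.35 and 6.29, and the postnatal 250 ppm females 7.26, 6.47, 7.54 and 6.69. The dose difference in Long Evans was 0.057, with a 95% interval from -0.18 to 0.30, where 0.0548% of probe sets passed. Whether the dose differences of the strains differed was not tested.

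The vascular endothelial growth factor receptors Flt1 and Kdr and the angiopoietin receptor Tek were not called in any of the 24 exposure contrasts. Over those contrasts 2 of 240 gene tests passed, the Cd93 and Apold1 calls above, and 0.0175% of all probe set tests passed. The genes described here were chosen with earlier results of these data known, so their share cannot be weighed against that of all probe sets. Kdr, the main signalling receptor of the family, had the widest range of the 3. In Fischer males the 750 ppm groups read 7.96, 7.99, 7.84 and 8.02 after perinatal and 7.97, 7.79, 8.0 and 7.95 after postnatal exposure, all above the controls at 7.52, 7.68, 7.64 and 7.75. These differences were 0.31 ± 0.11 and 0.28 ± 0.11 (limma adjusted p = 1 for each), and exposed animals lay above all controls for 1.31% and 2.04% of probe sets. In Fischer females the perinatal 250 ppm group at 7.29, 7.44, 7.74 and 7.68 lay below the controls at 8.02, 7.84, 7.99 and 7.80, as did 0.969% of probe sets, Cldn5 and Tek among them. The sex difference of the Kdr lead effect in Fischer rats, female minus male, was -0.40 ± 0.13 (limma adjusted p = 1). In Long Evans rats all 8 exposed Kdr means were below controls, by -0.35 to -0.040, with an average of -0.16 ± 0.057 (limma adjusted p = 0.365). The perinatal 750 ppm males at 7.30, 7.42, 7.57 and 7.45 lay below the male controls at 7.81, 7.69, 7.74 and 7.87, as did 1.38% of probe sets. Flt1, which binds the growth factor tightly and limits its signalling, also had 8 of 8 exposed means below controls in Long Evans, by -0.24 to -0.021, with an average of -0.11 ± 0.058 (limma adjusted p = 0.692). In Fischer rats Flt1 differed from controls by -0.17 to 0.14, with 3 exposed means above and 5 below. All 4 perinatal 750 ppm Fischer males lay above the male controls for Flt1, as did 1.31% of probe sets. Tek had 8 of 8 exposed means below controls in Fischer rats, by -0.19 to -0.022, and an average of -0.097 ± 0.039 (limma adjusted p = 1).

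**Figure D3:**
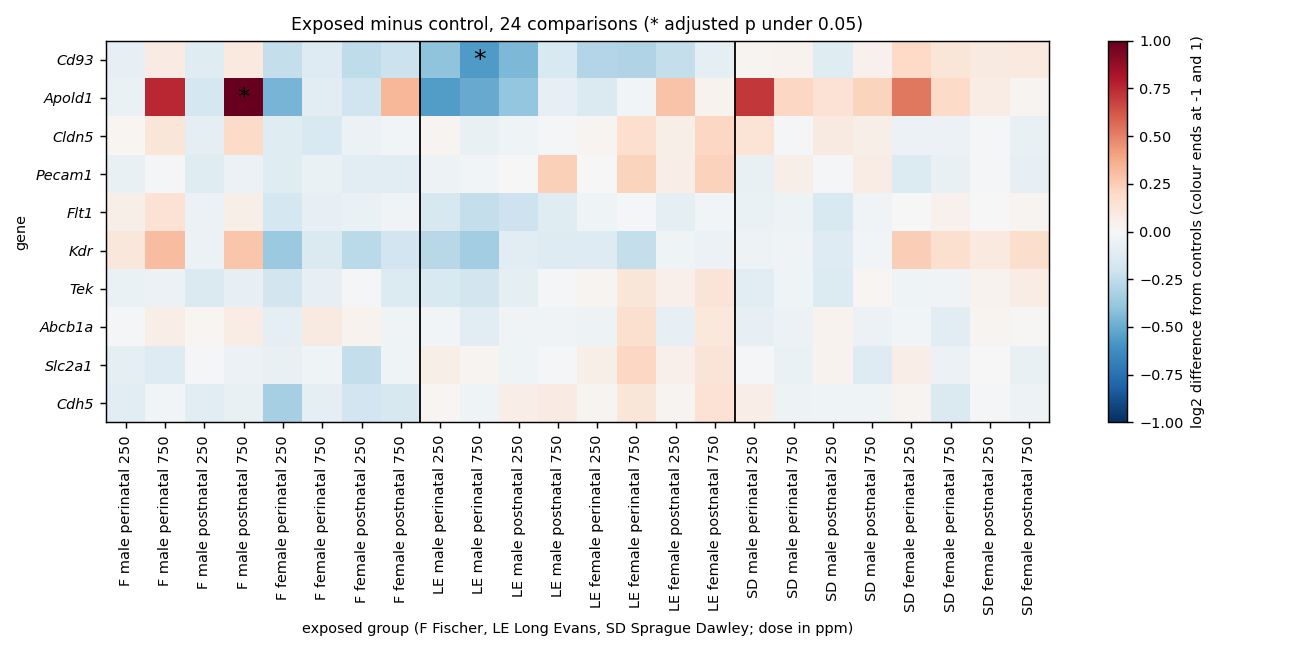
Difference from the controls of the same strain and sex (log2, colour) for the 10 genes (rows) in the 24 exposure contrasts (columns), with red above and blue below controls. Stars mark the 2 tests with an adjusted p under 0.05, Cd93 in Long Evans perinatal 750 ppm males and Apold1 in Fischer postnatal 750 ppm males, where the difference of 1.24 lies beyond the colour range.

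None of the junction genes passed in an exposure contrast. Cldn5, the main claudin of brain endothelial tight junctions, differed from controls by -0.15 to 0.20 over the 24 contrasts, and its average lead effect lay between -0.014 and 0.045 in the 3 strains, with SEs of 0.044 to 0.047. Cdh5, the vascular endothelial cadherin of adherens junctions, ranged from -0.33 in Fischer perinatal 250 ppm females to 0.14 in Long Evans postnatal 750 ppm females. Pecam1, an adhesion molecule of endothelial cell contacts that leukocytes and platelets also carry, ranged from -0.14 to 0.24. Its highest group mean, 8.33, was in Long Evans postnatal 750 ppm males, which lay above all their controls, as did 2.33% of probe sets. Pecam1 in Long Evans perinatal 750 ppm females and Cldn5 in postnatal 750 ppm females also lay above all controls, as did 2.44% and 1.4% of probe sets. The transporters did not pass either. Abcb1a, the P-glycoprotein drug efflux pump, ranged from -0.11 to 0.16. Slc2a1, the GLUT1 glucose transporter of the barrier, ranged from -0.24 to 0.21, and in Fischer rats all 8 exposed means were below controls, with an average of -0.086 ± 0.033 (limma adjusted p = 1). Slc2a1 lay below all controls in Fischer postnatal 250 ppm females and Sprague Dawley postnatal 750 ppm males, where 1.37% and 3.72% of probe sets did.

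Beyond single groups, no gene of the 10 passed in the average lead effect of Fischer rats, where 0% of probe sets passed and 729 had an unadjusted p under 0.05, 3 of them Cd93, Tek and Slc2a1. None passed in Sprague Dawley rats either, where 0.0171% of probe sets passed and Apold1 alone of the 10 had an unadjusted p under 0.05. Perinatal and postnatal exposure did not differ for any of the 10 genes by limma in any strain, where 0.00342% of probe sets passed in Fischer, 0.065% in Long Evans and 0.0411% in Sprague Dawley rats. The perinatal groups of Long Evans rats had lower Cd93 and Kdr means than the postnatal ones, by -0.16 ± 0.047 and -0.16 ± 0.051 (limma adjusted p = 0.202 and 0.231). Apold1 was -0.27 ± 0.091 in Fischer, -0.27 ± 0.12 in Long Evans and 0.29 ± 0.077 in Sprague Dawley rats for the same difference (limma adjusted p = 0.839, 0.375 and 0.476). Without Sprague Dawley perinatal 250 ppm male replicate 2, the animal with the low Apold1 value, Apold1 passed in the Sprague Dawley period comparison (0.34, limma adjusted p = 0.0397). None of the 10 genes was called between females and males in limma, where 0.0822%, 0.0856% and 0.0171% of probe sets passed in Fischer, Long Evans and Sprague Dawley rats, and 2, 1 and 0 of the 10 genes had an unadjusted p under 0.05. The labelled sex was used for every array, also the 3 Long Evans and 5 Sprague Dawley arrays whose X-linked genes opposed it. The sex difference of the lead effect passed for none of the 10 genes, nor for any probe set in Fischer or Long Evans rats (0%), and for 0.00342% in Sprague Dawley rats.

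Most barrier genes differed between strains. Over all 10 groups of a strain, Flt1, Kdr, Tek, Abcb1a and Slc2a1 were lower in Long Evans than in Fischer rats and higher in Sprague Dawley than in Long Evans rats. These are part of 6 genes called in the Long Evans and Fischer comparison (5 lower and 1 higher) and 7 in the Sprague Dawley and Long Evans comparison (6 higher and 1 lower), where 61.2% and 62.2% of all probe sets passed, so the shares of 6 of 10 and 7 of 10 were near the background. These comparisons share the Long Evans animals. Of these 5 genes Abcb1a had the largest difference: Long Evans animals ran from 8.48 to 9.28 with a median of 8.94, Fischer from 8.94 to 9.42 with a median of 9.23 and Sprague Dawley from 8.94 to 9.42 with a median of 9.17. The Long Evans minus Fischer difference was -0.28 ± 0.033 (limma adjusted p = 3.27e-12) and the Sprague Dawley minus Long Evans difference 0.25 ± 0.033 (limma adjusted p = 2.16e-10). For Flt1 these were -0.22 ± 0.025 and 0.21 ± 0.025, for Tek -0.16 ± 0.029 and 0.22 ± 0.029, for Slc2a1 -0.16 ± 0.020 and 0.12 ± 0.020, and for Kdr -0.13 ± 0.035 and 0.18 ± 0.035. Each kept its sign among lower and among upper label numbers. Cldn5 differed in another way. It was higher in Sprague Dawley than in Fischer rats by 0.30 ± 0.025 (8.84 against 8.54; limma adjusted p = 1.55e-18) and than in Long Evans rats by 0.25 ± 0.025 (limma adjusted p = 8.06e-15), with animals at 8.62 to 9.03 in Sprague Dawley, 8.14 to 8.82 in Fischer and 8.39 to 8.92 in Long Evans rats. Cldn5 and Apold1, the latter lower in Sprague Dawley by -0.26 ± 0.065, were the 2 genes called between Sprague Dawley and Fischer rats, where 40.7% of probe sets passed. Sequence differences between strains under a probe were not examined. Each strain also has its own runs of label numbers, so strain and run cannot be told apart. The split into lower and upper numbers lies within those runs and does not separate them.

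**Figure D4:**
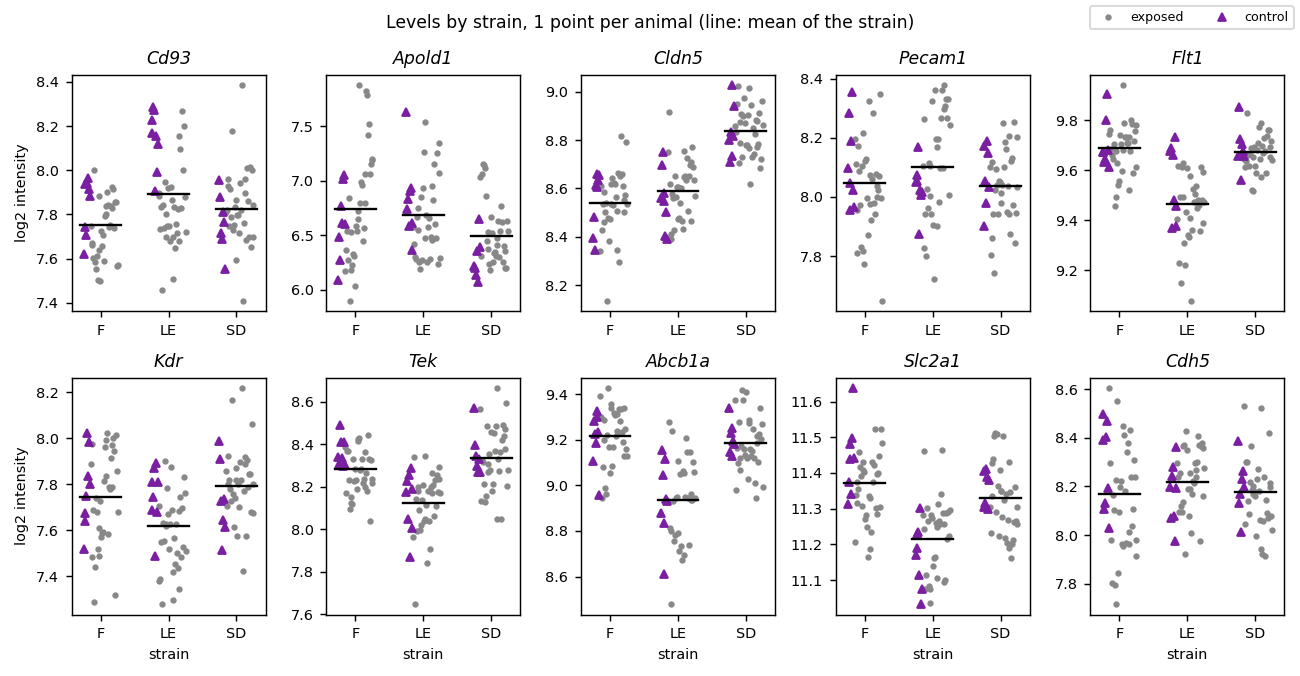
Level of each gene (log2 intensity, vertical axis; each panel has its own scale) in every animal of Fischer (F), Long Evans (LE) and Sprague Dawley (SD) rats, with controls as purple triangles, exposed animals as grey points and black lines for strain means. Abcb1a, Flt1, Tek, Slc2a1 and Kdr have lower means in Long Evans rats, and Cldn5 is highest in Sprague Dawley rats, at 8.84.

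In control animals alone the same strain pattern was partly present. Of the 10 genes, 5 passed between Long Evans and Fischer controls (25.1% of probe sets passed), 6 between Sprague Dawley and Long Evans (24.5%) and 1, Cldn5, between Sprague Dawley and Fischer (10.5%). Slc2a1 ran from 11.03 to 11.30 in the 8 Long Evans controls and from 11.31 to 11.64 in the 8 Fischer controls, a difference of -0.27 ± 0.044 (limma adjusted p = 9.56e-07). Tek and Abcb1a were lower in Long Evans than in Fischer controls by -0.23 ± 0.065 and -0.26 ± 0.074, and Flt1 by -0.15 ± 0.055 (limma adjusted p = 0.00486, 0.00471 and 0.0365). Cd93 went the other way and was higher in Long Evans controls than in Fischer controls by 0.30 ± 0.073 and than in Sprague Dawley controls by 0.36 ± 0.076 (given as Sprague Dawley minus Long Evans, -0.36; limma adjusted p = 0.000883 and 0.000142). The same Long Evans control values enter the Cd93 lead effect described above. Exposed animals of the 3 strains had closer Cd93 means, 7.73 in Fischer, 7.83 in Long Evans and 7.84 in Sprague Dawley rats. Apold1 was lower in Sprague Dawley than in Long Evans controls by -0.55 ± 0.15 (limma adjusted p = 0.00364). In the same controls 22 of 28 immediate early probe sets were lower in Sprague Dawley than in Long Evans rats, with Npas4, Arc and Nr4a1 lowest at -1.45 ± 0.29, -1.15 ± 0.11 and -1.08 ± 0.11. Without the arrays whose X-linked genes opposed their label, 7 of the 12 control calls stood. The Tek and Abcb1a calls of both Long Evans comparisons were lost (limma adjusted p = 0.0816 to 0.14), as was that of Flt1 (limma adjusted p = 0.212).

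Other genes of the barrier were counted in the same strain comparisons, where 61.2% of all probe sets passed between Long Evans and Fischer rats and 62.2% between Sprague Dawley and Long Evans rats. The lists' shares are near that background, and only the split of directions is described. Of 23 probe sets for blood-brain barrier transporters, 13 were lower and 2 higher in Long Evans than in Fischer rats, with a median of -0.11 against -0.014 over all probe sets, and 14 were higher and 2 lower in Sprague Dawley than in Long Evans rats, with a median of 0.12 against 0.019. Of 16 pericyte and smooth muscle probe sets, 9 were lower and 2 higher in Long Evans than in Fischer rats, with a median of -0.18. Pdgfrb and Rgs5, which mark pericytes, were lower by -0.17 ± 0.021 and -0.33 ± 0.026 (limma adjusted p = 2.63e-11 and 6.57e-20). Astrocyte endfoot genes had 5 of 8 probe sets lower and 1 higher. Endothelial identity and junction genes did not lean one way, with 10 of 26 lower and 7 higher. Among these lists the drug efflux pump Abcg2 was the lowest gene in Sprague Dawley rats, by -1.03 ± 0.038 against Fischer and -0.73 ± 0.038 against Long Evans rats, and the caveolar gene Cav1 was higher there by 0.55 ± 0.031 and 0.38 ± 0.031. The ligands Vegfa and Angpt2 differed less: Vegfa was higher in Long Evans than in Fischer rats by 0.070 ± 0.022 (limma adjusted p = 0.00347), and Angpt2 differed by 0.010 ± 0.044 (limma adjusted p = 0.857). For the mean lead effect, 0 probe sets of the transporter, endothelial identity, growth factor, Wnt, transcription factor and pericyte lists passed in any strain by limma, where 0%, 0.212% and 0.0171% of all probe sets passed in Fischer, Long Evans and Sprague Dawley rats.

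Cdh5 and Pecam1 varied most with the label number. In Fischer rats the 20 animals with lower numbers ran from 8.10 to 8.60 for Cdh5 with a median of 8.36, and the 20 with upper numbers from 7.72 to 8.19 with a median of 7.98. The difference, upper minus lower, was -0.36 ± 0.032 (limma adjusted p = 2.09e-11), and for Pecam1 -0.24 ± 0.033 (limma adjusted p = 1.87e-07). Of the 10 genes 6 passed in Fischer rats, 0 in Long Evans and 2 in Sprague Dawley rats, where 60.9%, 0.0993% and 18.9% of probe sets passed. The strain differences of these genes turned with it: Long Evans minus Fischer was -0.15 among lower and 0.26 among upper numbers for Cdh5, and -0.085 and 0.20 for Pecam1. Neither gene was called between strains. Label number took up 38.5% of the Cdh5 variance and 22.3% of the Pecam1 variance over all arrays, against a median of 8.27% over all probe sets. Strain took up 55% for Cldn5, 46.7% for Flt1 and 44.5% for Abcb1a, against a median of 15%. Treatment group within strain and sex took up 54% for Apold1 and 41.1% for Cd93, against 9.1% to 31.6% for the other 8 genes and a median of 14.5%. This share includes any difference between the runs of label numbers of the groups. The genes were chosen with earlier results of these data known, so the shares are description only.

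The range of the 30 group means was from 2.23 times the median SD for Cdh5 to 6.32 times for Apold1. Sorting 30 means places neighbours close together, so a count of gaps between them does not tell whether groups differ. Set in order over the 30 groups, neighbouring group means of most genes did not differ by more than their pooled SD. For Cldn5, Flt1, Kdr, Tek, Abcb1a, Slc2a1 and Cdh5, 0 of 29 neighbouring pairs did, and for Cd93, Apold1 and Pecam1 1 of 29 did. For Apold1 this gap, 0.48, set the Fischer postnatal 750 ppm males apart from the next group. For Cd93 the Long Evans male controls were highest at 8.24 and the Fischer postnatal 250 ppm males lowest at 7.63. Kdr and Flt1 shared both extremes, with the highest means in Fischer perinatal 750 ppm males (7.95 and 9.80) and the lowest in Long Evans perinatal 750 ppm males (7.43 and 9.36), and Tek was also lowest there, at 7.99. Slc2a1 was highest in Fischer female controls, at 11.5, and lowest in Long Evans female controls, at 11.1.

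Among animals of the same group, Apold1 had low correlations with the other 9 genes and Cd93 higher ones, near those of Flt1, Pecam1 and Tek. Residuals from the group means over all arrays, which share the processing of the whole series, are described here with no test. The 45 pairs of the 10 genes had a median Pearson correlation of 0.22, and the strongest pairs were Kdr with Tek at 0.64 and Pecam1 with Cdh5 at 0.63. With the label-number set also removed, Kdr with Tek was at 0.68 and Pecam1 with Cdh5 at 0.43, below Cd93 with Kdr at 0.61 and Cd93 with Tek at 0.58. Cd93 had a median of 0.37 with the other 9, and Apold1 a median of 0.13, with a range from -0.036 to 0.18. Slc2a1, Kdr and Cldn5 were low like Apold1, with medians of 0.18, 0.19 and 0.19. Cdh5 and Abcb1a had medians of 0.22 and 0.31. Flt1, Pecam1 and Tek were near Cd93, with medians of 0.35, 0.34 and 0.34. With the label-number set removed, the medians were 0.12 for Slc2a1, 0.14 for Apold1, 0.17 for Cldn5 and 0.345 for Kdr. Tek was then highest at 0.52, and Cd93 and Pecam1 were both at 0.36. Against the mean of the 8 genes other than Apold1 and Cd93, Apold1 had r = 0.15 (Spearman's rho = 0.099) and Cd93 r = 0.63 (rho = 0.58), or 0.42, 0.76 and 0.67 for Cd93 in Fischer, Long Evans and Sprague Dawley rats. The genes most like Apold1 were Dusp1 (0.73), Nr4a1 (0.63), Arc (0.62), Ccn1 (0.61) and Klf2 (0.58). Dusp1 held at 0.61, 0.82 and 0.69 in the 3 strains, and at 0.77 and 0.71 among lower and upper label numbers. The genes most like Cd93 were Kdelr3 and Smad6 (0.58 each), Nid2 (0.57), Cdkn1c (0.55) and Il10rb (0.54), and those most like the mean of the 10 were Ebf1 (0.68), Tie1 and Eng (0.66 each), Entpd1 (0.66) and Cald1 (0.65). Tie1, the partner receptor of Tek, and Eng, a co-receptor for transforming growth factor beta, are endothelial genes that the choice of the 10 did not use.

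**Figure D5:**
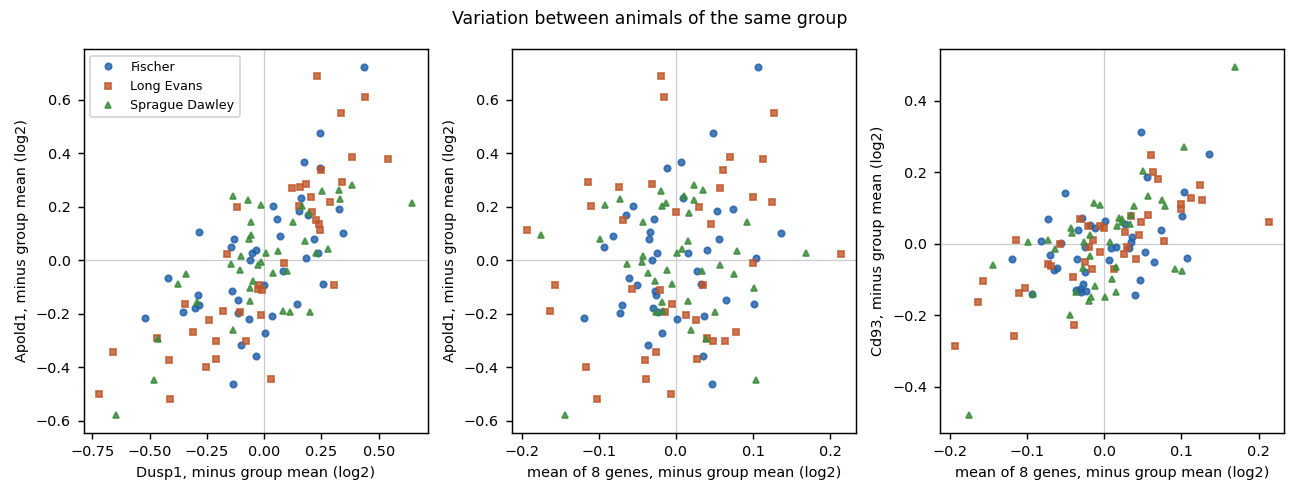
Deviation of each animal from its group mean (log2): Apold1 against Dusp1 (left), Apold1 against the mean of the 8 genes other than Apold1 and Cd93 (centre), and Cd93 against that mean (right), with 1 point per animal and strains by colour and shape. The left and right panels slope upward (r = 0.73 and 0.63), and the centre panel is a broad cloud (r = 0.15).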

How the data were processed

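The deposited values were log2 intensities of Affymetrix rat gene arrays, 1 array per hippocampus, with 29214 probe sets. RMA and Partek are named in the submitters' processing notes; versions are not given in the sources used here. No further normalization was applied. Probe sets were named from the platform annotation, with 15310 holding 1 symbol, 323 several and 13581 none, and 15279 matched a current gene by identifier.

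Differences between groups came from limma 3.58.1 (R 4.3.3), with a model per strain for lead, dose, period and sex, and one over all arrays for strains. Benjamini-Hochberg adjustment ran across all 29214 probe sets, with calls under an adjusted p of 0.05, and 95% intervals are 1.96 SE. List genes were named as the 3 highest and 3 lowest called per contrast, plus 12 genes always given. The members and lists were chosen with earlier results of these data known. Promoter sequences came from RefSeq. The fits were tested on simulated data. Labels pair no animals. Alternatives: another fit, quantile normalization, a filter on dim probe sets, array weights, a label-number block, choroid plexus or meningeal covariates, left-out arrays.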

Additional observations from a re-analysis of the deposited data

Results flagged for a closer look

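Of 290 groups of 4 animals examined over the 10 genes, 14 held an animal far from the other 3, and chance alone gives about 1 in 20. In Fischer rats these were Cd93 at 8.0 in perinatal 250 ppm female replicate 1 (others 7.55 to 7.61), Cldn5 at 8.79 in postnatal 750 ppm female replicate 3 (8.54 to 8.57), Flt1 at 9.52 in perinatal 750 ppm female replicate 4 (9.71 to 9.73), Kdr at 7.81 in postnatal 250 ppm female replicate 4 (7.57 to 7.59) and Tek at 8.17 in perinatal 250 ppm male replicate 2 (8.37 to 8.39).

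In Long Evans rats they were Pecam1 at 7.88 in female control replicate 1 (8.01 to 8.03), Flt1 at 9.37 in male control replicate 3 (9.66 to 9.69), Cdh5 at 8.37 in perinatal 250 ppm female replicate 4 (8.10 to 8.13), and Cdh5 at 7.92 in postnatal 250 ppm male replicate 2 (8.35 to 8.43) and at 7.98 in postnatal 750 ppm male replicate 3 (8.37 to 8.41). Female control replicate 1 had X-linked genes against its labelled sex.

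In Sprague Dawley rats they were Apold1 at 6.31 in perinatal 250 ppm male replicate 2 (7.03 to 7.15), Pecam1 at 7.94 in postnatal 250 ppm male replicate 2 (8.04 to 8.05), Flt1 at 9.83 in perinatal 250 ppm male replicate 4 (9.61 to 9.65) and Flt1 at 9.59 in postnatal 750 ppm male replicate 1 (9.74 to 9.76).

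The mean lead effect on Cd93 differed between Sprague Dawley and Long Evans rats by 0.37, by the test of that difference in limma.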

How the results depend on the processing

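No called difference reversed under the alternatives run. The uncalled differences of Cdh5 and Pecam1 between Fischer and each other strain changed sign with label numbers, at -0.15 among lower and 0.26 among upper numbers for Cdh5 and -0.085 and 0.20 for Pecam1 (Long Evans minus Fischer), and at -0.18 and 0.21 and -0.15 and 0.14 (Sprague Dawley minus Fischer). Of 24 exposure contrasts, calls moved from 2 to 1 when the dimmest 40% of probe sets were left out, Apold1 among them, to 1 without arrays against their sex label and to 4 with the meningeal covariate, which added Cd93 in Long Evans perinatal 250 ppm and postnatal 250 ppm males. Strain differences of the lead effect went from 1 call to 0 in a fit of the strains compared. Control strain differences went from 12 to 7 without arrays against their sex label. Dose calls went from 1 to 0 with the same filter, through Apold1.

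Leaving out each array gave 1 to 3 calls for exposure, 0 to 1 for the strain difference of the lead effect, 1 to 2 for dose and 0 to 1 for period. In fits over all arrays only the 23 control arrays were left out in turn. Calls gained this way were Cd93 in Long Evans postnatal 250 ppm males without Long Evans perinatal 250 ppm female replicate 1 (-0.45, limma adjusted p = 0.0497), and the Apold1 and Kdr calls given above. The Cd93 strain difference of the lead effect lost its call without Long Evans male controls 1, 3 or 4 (limma adjusted p = 0.0598, 0.0679, 0.0617), Long Evans female controls 2 or 4 (0.0903, 0.0874), Sprague Dawley male controls 2 or 3 (0.071, 0.188) or female controls 1 or 4 (0.0572, 0.113). The cause was not tested.

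No paired analysis was possible because the labels give each animal a number of its own, shared by no other group. With the label-number block, exposure, lead and dose calls numbered as without it. Values among lower or upper label numbers only were chosen after seeing the data. The number of arrays limits the precision.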
